A study of Mus musculus with 43 samples.

Results

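Transcripts of 3 nuclear receptor genes, Nr1d1 (REV-ERB alpha), Nr1d2 (REV-ERB beta) and Rora (ROR alpha), were followed across 43 RNA-seq libraries of white fat taken from the epididymal depot of mice, a store of visceral fat. The genes were taken by symbol, 3 of the 56748 genes in the files, and all 3 were among the 20218 genes that passed the filter on low counts. The 43 libraries came from male mice in 5 groups. The HFD group (n = 10) received a diet with 60% fat. Mice of the SZA200 (n = 9), SZA400 (n = 8) and SZA600 (n = 9) groups received the same diet and SZ-A, alkaloids from Ramulus Mori (Sangzhi, mulberry twig), in daily doses of 200, 400 and 600 mg/kg. The SD group (n = 7) received a standard diet with 10% fat. No group carried a transgene or a deletion per the labels, which give neither strain, age, length of treatment nor the hour at which tissue was taken. The series title speaks of obesity, of browning in white fat and of brown fat thermogenesis. Replicates are numbered biosamples in the labels and are not tied to named animals, so the p-values reflect only how far these libraries differ.

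REV-ERB alpha and REV-ERB beta are heme-binding nuclear receptors that lack the helix needed to recruit coactivators. They bind a hexamer with an A/T-rich flank, the ROR response element or RORE, and recruit the corepressor NCOR with histone deacetylase HDAC3 to repress genes such as Arntl (BMAL1). The ROR proteins bind the same element and activate the same genes, so that both families set the level of Arntl in the circadian clock. Nr1d1 and Nr1d2 are themselves switched on through E-boxes by the CLOCK and BMAL1 dimer, which closes the loop. In adipose tissue REV-ERB alpha is known for a role in fat cell differentiation and as a repressor of thermogenic genes, and ROR alpha for effects on lipid storage and inflammation.

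The start regions of the 3 genes and of Arntl, the clock gene that both families regulate, are given from RefSeq annotation of GRCm38.p6, each from 250 bases before to 50 bases after a transcription start. The motifs searched on both strands were the E-box core CACGTG, the RORE hexamer AGGTCA and the D-box TTANGTAA, and none of these overlaps another in the 4 windows shown. Capitals mark the AGGTCA matches. The windows lie at chr11:98775328-98775627 on the minus strand for Nr1d1, chr14:18239057-18239356 on the minus strand for Nr1d2, chr9:68653536-68653835 on the plus strand for Rora, and chr7:113207261-113207560 on the plus strand for Arntl.
Nr1d1: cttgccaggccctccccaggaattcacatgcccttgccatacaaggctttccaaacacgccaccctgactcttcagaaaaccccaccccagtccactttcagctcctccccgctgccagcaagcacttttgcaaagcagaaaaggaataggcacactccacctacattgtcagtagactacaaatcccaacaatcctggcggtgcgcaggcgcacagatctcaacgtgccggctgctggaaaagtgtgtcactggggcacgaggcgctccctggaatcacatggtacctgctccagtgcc
Nr1d2: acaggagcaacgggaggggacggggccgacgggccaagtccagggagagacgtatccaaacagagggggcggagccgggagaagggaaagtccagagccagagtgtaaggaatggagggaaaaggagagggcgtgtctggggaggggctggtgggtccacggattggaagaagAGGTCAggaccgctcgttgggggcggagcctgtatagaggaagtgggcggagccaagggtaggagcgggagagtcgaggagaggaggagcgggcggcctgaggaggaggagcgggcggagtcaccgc
Rora: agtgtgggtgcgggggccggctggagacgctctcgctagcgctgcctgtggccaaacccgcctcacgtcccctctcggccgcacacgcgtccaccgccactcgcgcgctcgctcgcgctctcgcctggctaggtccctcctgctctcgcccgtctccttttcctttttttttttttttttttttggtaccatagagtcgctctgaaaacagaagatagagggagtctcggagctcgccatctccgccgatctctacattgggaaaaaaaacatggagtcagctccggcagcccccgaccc
Arntl: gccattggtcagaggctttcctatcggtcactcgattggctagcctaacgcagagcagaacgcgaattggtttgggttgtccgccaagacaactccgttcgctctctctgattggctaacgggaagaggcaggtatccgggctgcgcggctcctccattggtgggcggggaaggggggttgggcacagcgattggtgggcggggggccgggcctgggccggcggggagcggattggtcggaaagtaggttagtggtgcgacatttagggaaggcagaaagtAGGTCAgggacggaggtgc
The Nr1d2 window held AGGTCA at bases 174 to 179, and the window of 1 of the Arntl starts held it at bases 282 to 287. The Arntl window shown is the one with the match. The window of the other Arntl start, chr7:113207215-113207514, is not shown and held none of the 3 motifs. None of the 3 motifs was spelled out in the Nr1d1 and Rora windows shown. Among 32851 windows of the same length, 16.3% held AGGTCA, 7.15% held CACGTG and 2.32% held TTANGTAA. A match describes letters only, and other parts of these genes were not searched.

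In the files' own coordinates, whose build the file headers do not name, Nr1d1 (ENSMUSG00000020889) spans chromosome 11 from 98658758 to 98666159 on the minus strand. Nr1d2 (ENSMUSG00000021775) spans chromosome 14 from 4230569 to 4265642 on the plus strand, and Rora (ENSMUSG00000032238) spans chromosome 9 from 68561068 to 69295528 on the plus strand. The labels name mm10, but none of these intervals equals that of the GRCm38 annotation, so the files' coordinates and the RefSeq windows were not combined. Nr1d1 shares 1075 bases at its 3′ end with Thra, the thyroid hormone receptor alpha gene on the other strand. The libraries kept strand per the labels, but the counting setting is not given in the sources used here, so the division of reads between Nr1d1 and Thra is uncertain. Rora shares 15359 bases with Gm15511, a long noncoding RNA gene on the other strand that held 0 to 4 counts per library.

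Total counts ranged from 32.7 to 44.3 in units of 1e6, with a median of 37.6. By the percentage of counts that fell on genes of small noncoding RNA, the libraries fell into 22 with a low share (set 1) and 21 with a high share (set 2). Set 1 held 2 of 7 SD libraries and 5 libraries of every other group, and the labels do not name such sets. In a fit with group and set, Nr1d1 was higher in set 2 than in set 1 by 0.30 ± 0.132 (log2, SE, edgeR adjusted p = 0.0491), while 57.8% of all tested genes differed between the sets. The same difference was 0.15 ± 0.0751 for Nr1d2 (adjusted p = 0.0905) and 0.10 ± 0.0911 for Rora (adjusted p = 0.378). SZA400 libraries 3 and 6, SZA600 library 6 and SD library 4 held 185 to 752 genes private to a library, against at most 58 in the other 39. They are called libraries with RNA of other tissues here, though this rule names no tissue. Markers of ciliated and duct epithelium (8 genes) summed to 892, 28432, 1418 and 909 CPM in that order, against at most 83.4 CPM in any other library. SZA400 library 6 also held 22797 CPM of smooth muscle markers and 4199.8 CPM of adipocyte markers. It stayed in the fit of all 43 libraries. Adipocyte markers (12 genes, including Adipoq and Plin1) were detected in every group, none at 0. Their summed CPM had a median of 18494 in HFD (range 13664 to 48796), 26816 in SZA200 (15248 to 42535), 29659 in SZA400 (4199.8 to 40999.6), 35199 in SZA600 (16135 to 40034) and 35299.5 in SD (14708 to 38101). Summed macrophage markers (12 genes) had medians of 7367 CPM in HFD, 5305 in SZA200, 1592 in SZA400 and 2069.7 in SZA600, against 648 in SD. Preadipocyte and fibroblast markers (8 genes) had medians of 6054 CPM in HFD, 2533 in SZA200, 1907 in SZA400 and 1791 in SZA600, against 1482 in SD, and endothelial markers (8 genes) 1168, 997, 1346 and 1197 CPM in the same order, against 2080.3 in SD. HFD libraries 8, 9 and 10 stood apart from the other 7, with 979.6 to 3004 CPM of macrophage markers against 6387 to 11367, and 31697 to 48796 CPM of adipocyte markers against 13664 to 20473.5. The part of these cells in the values of the 3 genes was not tested.

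Nr1d1 encodes REV-ERB alpha and had the widest spread of the 3 genes. Its level in normalised counts per 1e6 (CPM) was lowest in HFD at 74.5 ± 22.8 and reached 107 ± 37.3 in SZA200, 155 ± 62.9 in SZA400 and 148 ± 30.5 in SZA600, with 147 ± 36.5 in SD (mean ± SD). The lowest, median and highest library held 48.1, 70.1 and 113 CPM in HFD, 50.7, 99.5 and 156 CPM in SZA200, 99.0, 139 and 274 CPM in SZA400, and 93.3, 147 and 198 CPM in SZA600. In SD they held 80.1, 146 and 202 CPM. HFD libraries 8, 9 and 10 held 82.7, 113 and 109 CPM, and the other 7 HFD libraries 48.1 to 83.3 CPM. HFD and SD overlapped through 1 SD library alone, number 4, which held RNA of other tissues. Above the highest HFD library lay 4 of 9 SZA200, 5 of 8 SZA400 and 8 of 9 SZA600 libraries. The highest value of all, 274 CPM, belonged to SZA400 library 3, another library with RNA of other tissues.

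**Figure D1:**
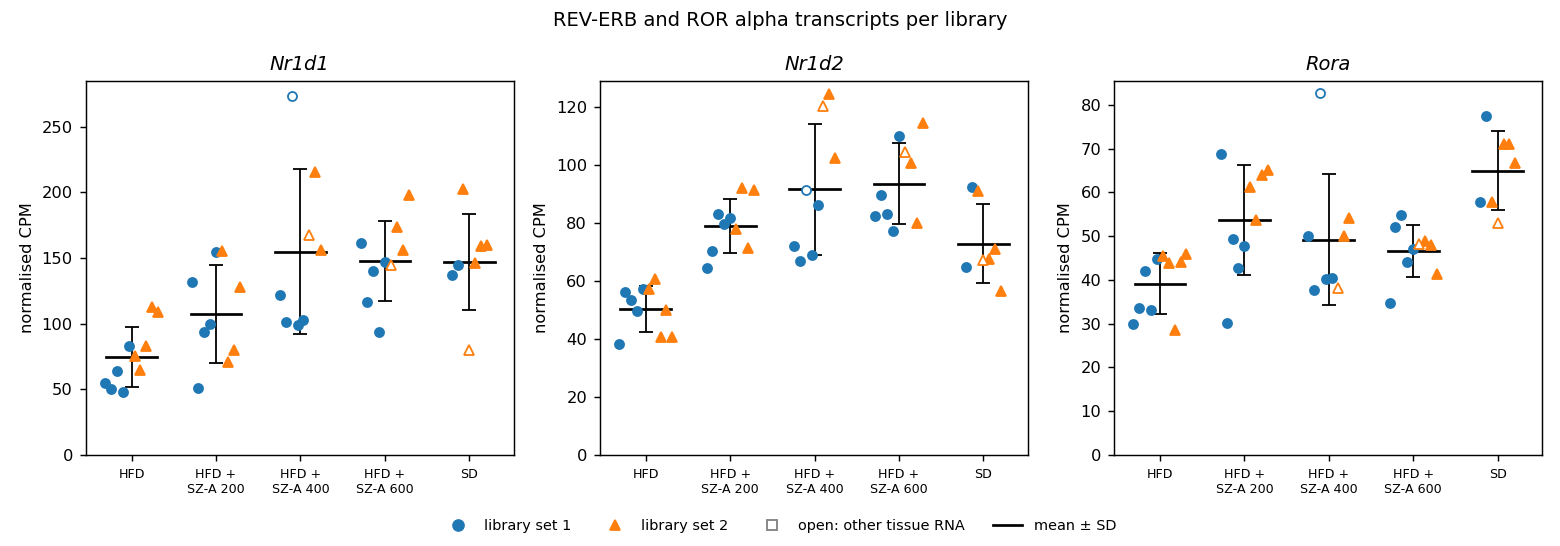
Normalised CPM (vertical axis) of Nr1d1, Nr1d2 and Rora in each of the 43 libraries by group, with the mean and SD as bars, set 1 as circles, set 2 as triangles and the 4 libraries with RNA of other tissues as open symbols. Every SZ-A library lies above the highest HFD library (60.9 CPM) for Nr1d2, and every HFD library lies below the lowest SD library (52.9 CPM) for Rora.

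Nr1d1 was lower in HFD than in SD, with a log2 fold change of -0.98 ± 0.218 (SE) and an adjusted p of 0.000996. Tests are edgeR quasi-likelihood F tests with Benjamini-Hochberg adjustment over all 20218 genes, and a gene was called under 0.05. Of all tested genes 13.3% were called lower and 18.4% higher in HFD than in SD, so a call in this comparison is common. Against HFD, Nr1d1 rose in SZA400 (log2 fold change 1.05 ± 0.211, adjusted p = 0.00373), where 2.46% of genes were called higher and 0.406% lower. It rose by a like amount in SZA600 (0.99 ± 0.206, adjusted p = 0.00542), where 5.12% were called higher and 6.47% lower. In SZA200 the difference of 0.52 ± 0.205 was not called (adjusted p = 0.572). Over the 4 high-fat groups the slope per 200 mg/kg/day was 0.35 ± 0.0655 (adjusted p = 0.0020), in a trend that called 6.82% of genes higher and 7.86% lower with dose.

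Without the 4 libraries with RNA of other tissues, the SZA400 difference of Nr1d1 was 0.82 ± 0.207 and was not called (adjusted p = 0.160). With the library set as a term and without those libraries it was 0.87 and called (adjusted p = 0.0231). Within set 1 Nr1d1 was called in HFD against SD (-1.29), in SZA400 against HFD (1.25) and in SZA600 against HFD (1.17). Within set 2 the same differences were -0.76, 0.99 and 0.91 and none was called (adjusted p = 0.0966, 0.109 and 0.290). Set 2 without its libraries with RNA of other tissues, a setting chosen after seeing the data, gave -0.92, 1.05 and 0.98. There only HFD against SD was called (edgeR adjusted p = 0.0212, 0.216 and 0.409). The SZA200 value was 0.84 in set 1 and 0.27 in set 2, neither called, and the slope was 0.39 and called in set 1 and 0.35 and not called in set 2. The interaction of group and set was tested in HFD against SD and in each SZ-A group against HFD, not for the slope, and was not called for any of the 3 genes (lowest adjusted p = 0.210).

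Nr1d2 encodes REV-ERB beta, the close paralog of REV-ERB alpha. It was lowest in HFD at 50.5 ± 8.04 CPM and higher in every SZ-A group, with 79.2 ± 9.32 in SZA200, 91.7 ± 22.7 in SZA400 and 93.6 ± 14.0 in SZA600, and with 73.0 ± 13.7 in SD. The lowest, median and highest library held 38.3, 51.8 and 60.9 CPM in HFD, 64.6, 79.8 and 92.3 CPM in SZA200, 66.8, 88.9 and 125 CPM in SZA400, and 77.5, 89.8 and 115 CPM in SZA600. In SD these were 56.5, 67.8 and 92.6 CPM. No library of any SZ-A group overlapped the HFD libraries: all 9, all 8 and all 9 lay above the highest of them. Such a separation was met by 0.0198% of tested genes for SZA200, 0.0396% for SZA400 and 0.0742% for SZA600. Against SD the HFD group overlapped, with 7 of 10 HFD libraries below the lowest SD library.

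The log2 fold change of Nr1d2 against HFD was 0.65 ± 0.118 in SZA200 (edgeR adjusted p = 0.0312), 0.86 ± 0.121 in SZA400 (adjusted p = 0.000117) and 0.89 ± 0.118 in SZA600 (adjusted p = 1.42e-05). In SZA200 only 2 of 20218 genes (0.00989%) were called higher and 0% lower, and Nr1d2 had the smallest p of all genes. The other was Ube3a, a ubiquitin ligase gene, named here after its value was seen. At an unadjusted p under 0.05 edgeR had 863 genes higher and 534 lower in SZA200, the DESeq2 Wald test called 8 and 12, and limma voom with quality weights called 309 and 174. The SZA200 call of Nr1d2 was lost when any of 11 libraries was left out of the 19 compared, 6 of SZA200 and 5 of HFD, with a log2 fold change between 0.60 and 0.68 throughout. By p, Nr1d2 was number 2 in SZA400 and number 4 in SZA600 of all tested genes, and its slope was 0.29 ± 0.0376 per 200 mg/kg/day (adjusted p = 8.98e-06).

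Nr1d2 was lower in HFD than in SD by a log2 fold change of -0.53 ± 0.126 (edgeR adjusted p = 0.00163). Within set 1 it was -0.69 and called, and within set 2 it was -0.52 and not called (adjusted p = 0.0627). For SZA400 against HFD the sets gave 0.62 in set 1 and 1.19 in set 2, both called, and the difference between the sets, 0.62 ± 0.213, was not called (adjusted p = 0.210). Against HFD, SZA200 gave 0.60 in set 1 (called) and 0.72 in set 2 (adjusted p = 0.650), SZA600 gave 0.84 in set 1 and 1.00 in set 2 (both called), and the slope was 0.25 in set 1 and 0.35 in set 2 (both called). In set 2 the 3 SZA400 libraries held 103 to 125 CPM and in set 1 the 5 SZA400 libraries held 66.8 to 91.5 CPM.

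Rora encodes ROR alpha, the activator that competes with the REV-ERB proteins for the RORE. Its level was 39.1 ± 6.97 CPM in HFD, 53.7 ± 12.5 in SZA200, 49.2 ± 14.9 in SZA400 and 46.5 ± 5.98 in SZA600, against 65.0 ± 8.96 in SD. The lowest, median and highest library held 28.6, 43.0 and 45.9 CPM in HFD, 30.2, 53.8 and 68.8 CPM in SZA200, 37.7, 45.2 and 82.7 CPM in SZA400, and 34.6, 48.0 and 54.8 CPM in SZA600. In SD they held 52.9, 66.6 and 77.5 CPM. Every HFD library lay below every SD library, which held for 0.93% of tested genes in this direction. The SZ-A groups overlapped HFD, and 7 of 9 SZA200, 4 of 8 SZA400 and 6 of 9 SZA600 libraries lay above the highest HFD library.

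Rora was lower in HFD than in SD, with a log2 fold change of -0.73 ± 0.145 (edgeR adjusted p = 0.00040), and this was called within set 1 (-0.94) and within set 2 (-0.63) as well. No SZ-A group differed from HFD by the test. The differences were 0.46 ± 0.136 in SZA200 (adjusted p = 0.437), 0.33 ± 0.140 in SZA400 (adjusted p = 0.196) and 0.25 ± 0.136 in SZA600 (adjusted p = 0.216). The slope was 0.06 ± 0.0433 per 200 mg/kg/day (adjusted p = 0.331). These missed calls do not show that Rora stayed the same, and the unadjusted p in SZA200 was 0.00175. In set 1 and set 2 the values were 0.40 and 0.54 in SZA200, 0.49 and 0.17 in SZA400, and 0.39 and 0.16 in SZA600, none of them called. Without the 4 libraries with RNA of other tissues the SZA400 value was 0.20 (adjusted p = 0.639).

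**Figure D2:**
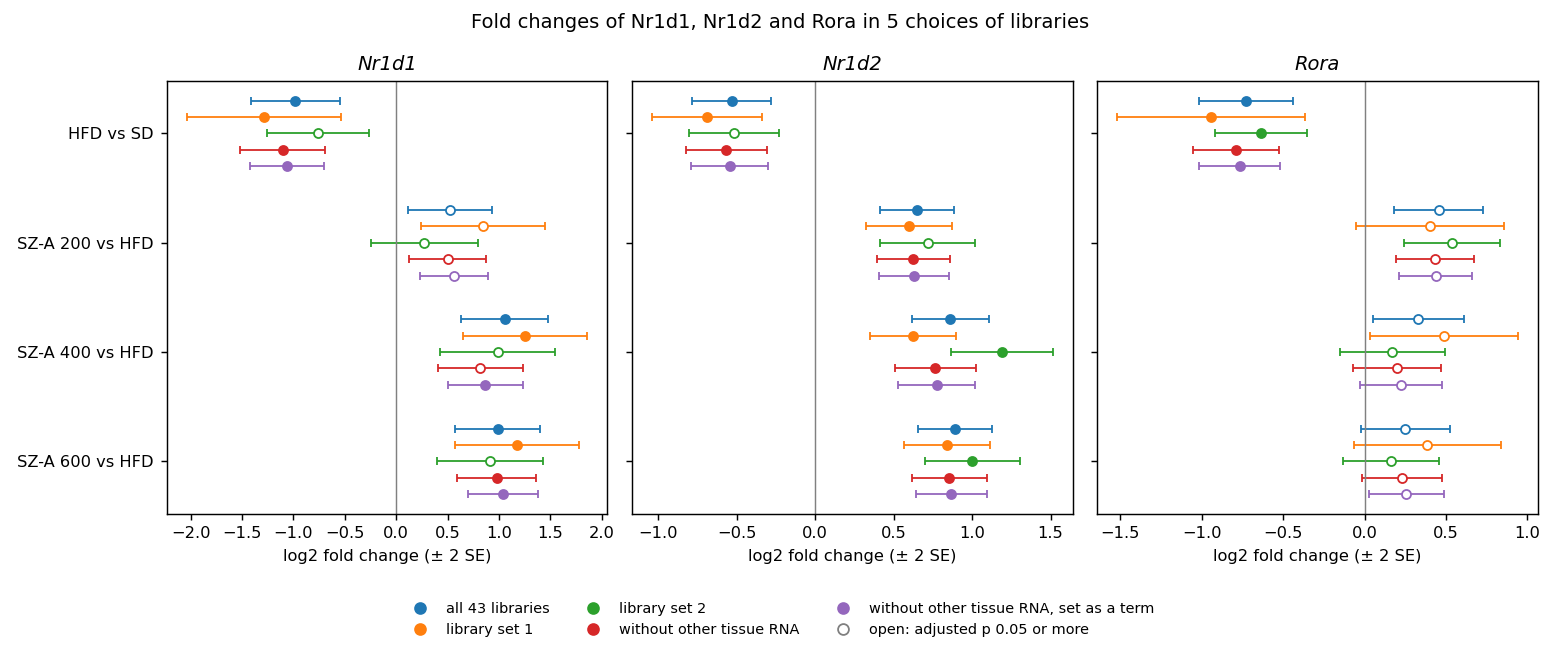
Log2 fold change with 2 SE (horizontal axis) of Nr1d1, Nr1d2 and Rora in HFD against SD and in each SZ-A group against HFD, from all 43 libraries, from each library set, without the 4 libraries with RNA of other tissues, and without these with the set as a term. Open symbols have an adjusted p of 0.05 or more: Nr1d1 keeps a value near 1 in SZA600 throughout, but is not called within set 2.

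Set against SD, 15.4% of tested genes were called in SZA200, 10.9% in SZA400 and 3.36% in SZA600, and none of the 3 genes was among them. Nr1d1 differed from SD by -0.46 ± 0.224 in SZA200, 0.07 ± 0.231 in SZA400 and 0.01 ± 0.225 in SZA600 (edgeR adjusted p = 0.152, 0.864 and 0.993). The SZA200 value of Nr1d1 was called under 4 of 16 alternative settings, with a range of -0.73 to -0.37 and a lowest adjusted p of 0.00081, among them limma voom and the fit without the 4 libraries with RNA of other tissues (-0.60, adjusted p = 0.0418). Nr1d2 differed by 0.12 ± 0.130, 0.33 ± 0.133 and 0.36 ± 0.130 in the same order of dose (edgeR adjusted p = 0.547, 0.0957 and 0.105). Rora differed by -0.28 ± 0.149, -0.40 ± 0.153 and -0.48 ± 0.149 (adjusted p = 0.193, 0.0769 and 0.0591), and 8 of 9 SZA600 libraries held less than the lowest SD library. Leaving out SZA400 library 3 brought the SZA400 value of Rora to -0.55, and leaving out SD library 4 or SZA600 library 6 brought the SZA600 value to -0.54 or -0.50, each then called. The SZA600 value was called under 8 of 16 alternative settings, all of the same sign, and the SZA400 value under 4 of 16. The SZA200 value of Rora was called under 1 of 16, and Nr1d2 under 0, 1 and 2 of 16 in SZA200, SZA400 and SZA600. Between doses 1.04% of genes were called in SZA400 against SZA200, 0% in SZA600 against SZA200 and 0.519% in SZA600 against SZA400, with none of the 3 genes. For SZA600 against SZA200 edgeR had 1207 genes higher and 1247 lower at an unadjusted p under 0.05, the DESeq2 Wald test called 40 and 33, and limma voom called 590 and 679.

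Ordered by mean level, Nr1d1 ran from HFD through SZA200 to SD, SZA600 and SZA400, Nr1d2 from HFD through SD, SZA200 and SZA400 to SZA600, and Rora from HFD through SZA600, SZA400 and SZA200 to SD. In Nr1d1 none of the neighbours in this order differed by the test. In Nr1d2 HFD differed from SD, next above it, and no other neighbours differed. In Rora no neighbours differed, and only the ends of the order, HFD and SD, did.

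Between genes, levels were compared in the deposited FPKM, which divide counts by 1 fixed length per gene. This length was 3077 bases for Nr1d1, 5409 for Nr1d2 and 13071 for Rora. How well these lengths match the transcripts expressed here was not tested. Nr1d1 had the highest FPKM, with medians of 22.7 FPKM in HFD, 31.2 in SZA200, 45.6 in SZA400, 50.3 in SZA600 and 48.6 in SD. Nr1d2 had medians of 9.41, 14.4, 16.2 and 15.9 FPKM in the 4 high-fat groups from no SZ-A to 600 mg/kg/day and 12.9 in SD, and Rora 3.23, 3.98, 3.37 and 3.65 FPKM and 5.28 in SD. Nr1d1 exceeded Rora in FPKM in every library, and so did Nr1d2. This order depends on the lengths. In CPM, which are not divided by length, Rora exceeded Nr1d2 in some libraries and lay below it in others. Among the former were HFD library 10 (45.9 against 40.7 CPM) and SZA200 library 1 (68.8 against 64.6 CPM). The median ratio of Nr1d2 to Rora was 3.09 in HFD, 4.08 in SZA200, 4.44 in SZA400 and 4.98 in SZA600, against 2.72 in SD. For Nr1d1 to Rora it was 7.42 in HFD, 8.12 in SZA200, 11.8 in SZA400 and 13.3 in SZA600, against 9.52 in SD. The ratios combine values tested above and were not tested again. In bulk tissue, fewer cells of a type and less RNA per cell cannot be told apart.

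**Figure D3:**
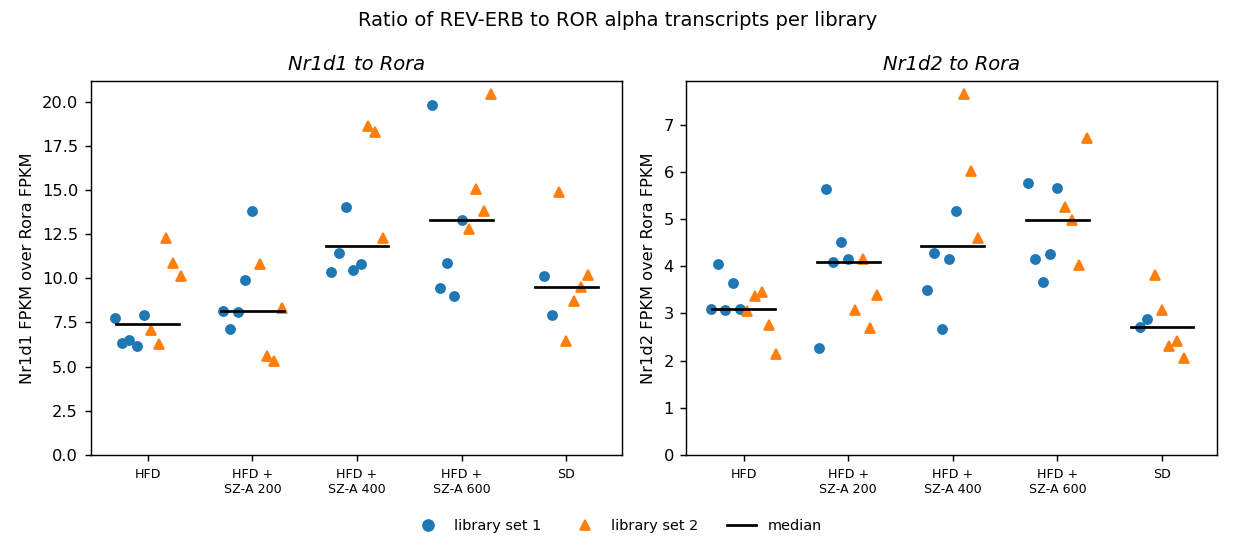
Ratio of the deposited FPKM of Nr1d1 (left) and Nr1d2 (right) to that of Rora in each library, by group, with the median as a line, set 1 as circles and set 2 as triangles. The median of the Nr1d2 ratio is 4.98 in SZA600 and 3.09 in HFD, and all libraries lie above 1.

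Thra, which overlaps Nr1d1, was called lower in HFD than in SD as well (-0.52 ± 0.132, edgeR adjusted p = 0.00321). Against HFD it differed by 0.05 ± 0.124 in SZA200, 0.31 ± 0.128 in SZA400 (adjusted p = 0.184) and 0.28 ± 0.124 in SZA600 (adjusted p = 0.121), none of them called. Across libraries log2 CPM of Nr1d1 and Thra had Pearson r of 0.84 within set 1 (n = 22) and 0.72 within set 2 (n = 21). These libraries share groups and depth, and reads of the shared bases could add to the correlation, which was not tested.

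Clock genes reported to carry ROREs, and so to lie downstream of the REV-ERB and ROR proteins, were led by Arntl, which encodes BMAL1. In start windows cut as above, 3 of the 5 genes of this list (Arntl, Clock and Nfil3) held AGGTCA. Npas2 and Cry1 did not. Among all windows 16.3% held it, and a gene can have more than 1 window. Arntl held 22.6 ± 5.77 CPM in HFD, 14.0 ± 2.92 in SZA200, 10.6 ± 1.92 in SZA400 and 7.70 ± 2.15 in SZA600, against 22.2 ± 3.51 in SD. SZA600 libraries held 4.44 to 11.0 CPM and HFD libraries 11.2 to 28.2 CPM, so the ranges nearly met. How many of all tested genes separated in this direction was not counted. Arntl fell in SZA400 (log2 fold change against HFD -1.10 ± 0.167, edgeR adjusted p = 0.000277) and in SZA600 (-1.55 ± 0.163, adjusted p = 1.24e-07). Its log2 fold change was 0.03 ± 0.169 in HFD against SD (adjusted p = 0.921), a comparison in which Nr1d1, Nr1d2 and Rora were all lower. In set 1 and set 2 Arntl gave -1.16 and -1.13 in SZA400 and -1.81 and -1.19 in SZA600, and both set 2 values were not called (adjusted p = 0.0929 and 0.240). The SZA200 value of Arntl was -0.69 ± 0.159 and not called (adjusted p = 0.179).

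Of the 5 RORE clock genes reported here, not a full list, and all tested, 2 fell and 0 rose in SZA400 against HFD, 3 fell and 0 rose in SZA600, and 0 were called in SZA200. Of all tested genes 0.406% were called lower and 2.46% higher in SZA400, and 6.47% and 5.12% in SZA600. In SZA200 0% were called lower and 0.00989% higher. Besides Arntl, Npas2, a CLOCK paralog, fell in SZA400 (-1.55 ± 0.367, edgeR adjusted p = 0.0135) and SZA600 (-1.44 ± 0.351, adjusted p = 0.0110), and Nfil3, a repressor of D-box genes, fell in SZA600 (-1.70 ± 0.310, adjusted p = 0.0022). The list's median log2 fold change was -0.96 in SZA400 and -1.44 in SZA600, against 0.05 and 0.06 over all genes. Without the 4 libraries with RNA of other tissues the SZA400 call of Npas2 was lost (-1.52, adjusted p = 0.120), as it was without SZA400 library 6 alone. In HFD against SD 2 of the 5 fell and 0 rose, where 13.3% of all genes were called lower and 18.4% higher. The log2 fold change was -0.73 ± 0.176 for Cry1, a cryptochrome repressor, and -0.56 ± 0.134 for Clock, the partner of BMAL1. In set 1 and set 2 Cry1 gave -1.17 and -0.47 and Clock -0.86 and -0.43, called only in set 1. In the SZA600 comparison Npas2 gave -1.92 and -0.92 and Nfil3 -1.70 and -1.67, again called only in set 1.

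Clock genes driven through E-boxes by CLOCK and BMAL1, the group to which Nr1d1 and Nr1d2 belong by regulation, gave rises alone in the SZ-A groups by edgeR with all libraries. Of 10 such genes, all tested, 4 rose and 0 fell in SZA400 against HFD, 5 rose and 0 fell in SZA600, and 0 were called in SZA200. Of all tested genes 2.46% were called higher and 0.406% lower in SZA400, and 5.12% and 6.47% in SZA600. In SZA200 0.00989% were called higher and 0% lower. Dbp, a PAR domain activator of D-box genes, held 20.7 ± 10.1 CPM in SZA200, 43.9 ± 12.4 in SZA400 and 43.1 ± 9.09 in SZA600, against 11.2 ± 3.48 in HFD. It rose by 1.97 ± 0.245 in SZA400 (edgeR adjusted p = 1.16e-05) and 1.94 ± 0.240 in SZA600 (adjusted p = 4.89e-06). Hlf and Tef, the other two PAR domain genes, rose by 2.21 ± 0.348 and 0.97 ± 0.146 in SZA400 and by 2.07 ± 0.341 and 1.10 ± 0.142 in SZA600. Cry2, the other cryptochrome gene, rose in both (0.69 and 0.68), and Per3, a period gene, in SZA600 (1.25 ± 0.346). In set 1 and set 2 Dbp gave 1.58 and 2.47 in SZA400 and 1.70 and 2.28 in SZA600, and Tef 1.15 and 0.93 in SZA400 and 1.28 and 1.02 in SZA600, all called. Hlf gave 2.32 and 2.32 in SZA400 and 2.64 and 1.71 in SZA600, called only in set 1 (adjusted p in set 2 0.0577 and 0.290). Without the 4 libraries with RNA of other tissues 3 rose in SZA400, Cry2 being lost (0.64, adjusted p = 0.368), and 5 rose in SZA600. Of all 20054 genes in that fit 8 were called higher in SZA400 and 775 in SZA600. The call of Cry2 in SZA400 was also lost when any of 12 of 18 libraries was left out, and that of Per3 in SZA600 without SZA600 library 6. Limma voom called Bhlhe40 (DEC1), another repressor at E-boxes, lower in SZA600 (-0.53, adjusted p = 0.0191).

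In HFD against SD the E-box list had 1 gene higher and 3 lower, where 18.4% of all genes were called higher and 13.3% lower. Hlf, Per3 and Tef fell, with log2 fold changes of -1.52 ± 0.353, -1.27 ± 0.365 and -0.58 ± 0.151, while Bhlhe41 (DEC2), a repressor at E-boxes, rose by 0.96 ± 0.372 (edgeR adjusted p = 0.0451), a call lost when any of 13 of 17 libraries was left out. Dbp differed by 0.44 ± 0.255 (adjusted p = 0.183). HFD libraries enter both this comparison and those with SZ-A, so the values of the comparisons are not independent.

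**Figure D4:**
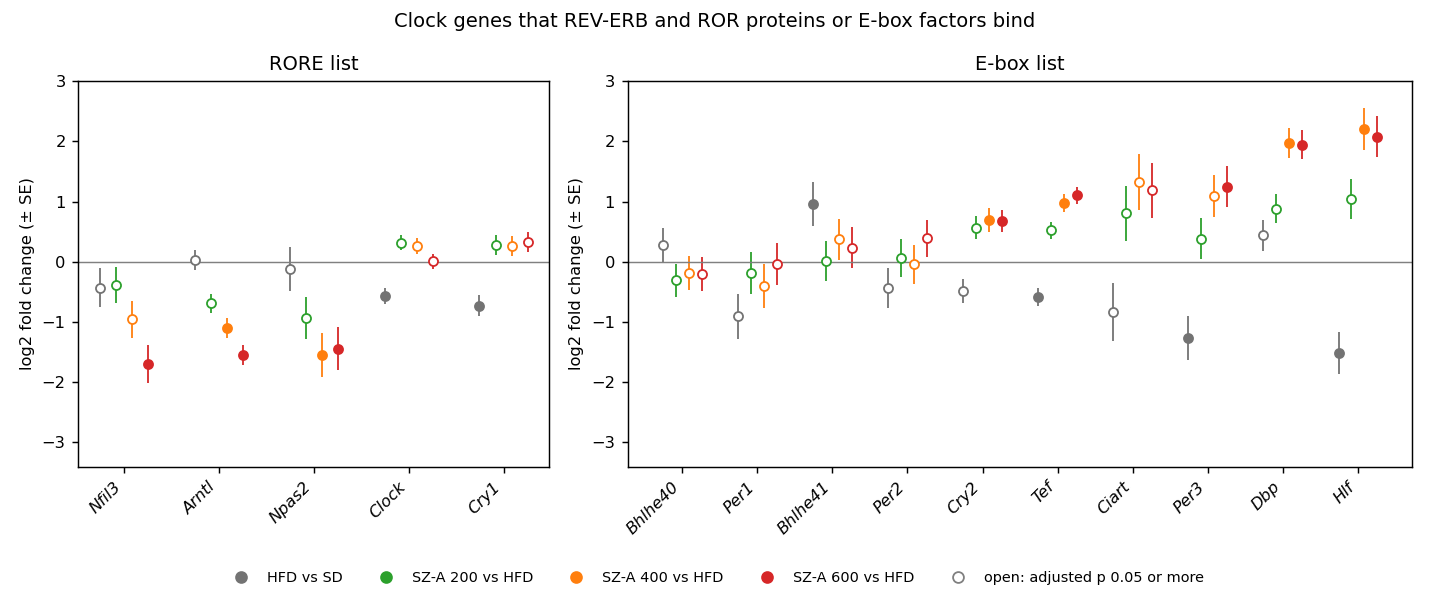
Log2 fold change with its SE (vertical axis) of each gene of the RORE list and the E-box list in HFD against SD and in each SZ-A group against HFD, genes ordered by the SZA600 value, with filled symbols where the adjusted p was under 0.05. Arntl, Npas2 and Nfil3 lie below 0 in SZA600 and Dbp, Hlf, Tef, Per3 and Cry2 above it.

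The corepressor and heme list holds the partners of the REV-ERB proteins and enzymes of the heme that they bind. Of its 9 genes reported here, 1 rose and 3 fell in HFD against SD, against 18.4% of all genes higher and 13.3% lower, and 0 were called in any SZ-A group against HFD. In SZA400 2.46% of all genes were called higher and 0.406% lower, and in SZA600 5.12% and 6.47%. For SZA200 these shares were 0.00989% and 0%. Over the alternatives the SZA600 counts of this list reached 5 higher and 3 lower, both with limma voom. Ncor1, the corepressor itself, held 229 ± 59.4 CPM in HFD and 418 ± 77.4 in SD and fell, with a log2 fold change of -0.87 ± 0.189 (edgeR adjusted p = 0.00081). Hmox1, the heme-degrading oxygenase that macrophages also express, rose by 2.31 ± 0.626. Hdac3 and the complex subunit Tbl1x fell, with values of -0.34 ± 0.122 and -0.27 ± 0.101, calls lost when any of 8 and any of 9 of the 17 libraries was left out. Summed macrophage markers (12 genes) ran with Hmox1, with a median of 7367 CPM in HFD (range 979.6 to 11367) and 648 CPM in SD (549.8 to 1659). Their part in this result was not tested.

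Among 10 coactivators of nuclear receptors, 0 rose and 3 fell in HFD against SD, where 18.4% of all genes were called higher and 13.3% lower, and over the alternatives 1 to 7 were called lower. The log2 fold change was -1.09 ± 0.143 for Kat2b (PCAF), -2.02 ± 0.411 for Ppargc1a (PGC-1 alpha, a driver of mitochondrial genes and a coactivator of ROR alpha) and -0.45 ± 0.136 for Ncoa1. In SZA600 against HFD 2 rose, Kat2b (0.42 ± 0.134) and Ppargc1a (1.19 ± 0.387), and Ncoa3 fell (-0.53 ± 0.158), where 5.12% of all genes were called higher and 6.47% lower. The calls of Kat2b, Ppargc1a and Ncoa3 were lost when any of 11, 7 and 4 of 19 libraries was left out. Without the 4 libraries with RNA of other tissues the SZA600 value of Ppargc1a was 0.52 and not called (adjusted p = 0.255). None was called in SZA200 or SZA400. Of all genes 0.00989% were called higher and 0% lower in SZA200, and 2.46% and 0.406% in SZA400. Of 7 genes for kinases and ubiquitin ligases that control the stability of REV-ERB proteins, 0 were called in HFD against SD. The ligase gene Siah2 fell in SZA600 against HFD (-0.48 ± 0.130, edgeR adjusted p = 0.0176), and no other of the 7 was called against HFD at any dose.

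Of 14 metabolic and inflammatory genes reported as REV-ERB or ROR targets, 1 rose and 2 fell in HFD against SD, shares near or below those of all genes (18.4% higher and 13.3% lower). The monocyte chemokine gene Ccl2 rose by 1.66 ± 0.509, and the cytokine gene Il1b and the apolipoprotein gene Apoc3 fell, with values of -2.14 ± 0.702 and -1.63 ± 0.643. Il1b had a median of 0.99 CPM in HFD, against 1.60 CPM in SD with a highest library of 24.8 CPM, and without SD library 6 the value was -0.49 and not called (adjusted p = 0.580). The call of Apoc3 was lost when any of 13 of 17 libraries was left out. Against HFD, 0 of the 14 were called in SZA200, 0 rose and 1 fell in SZA400, and 0 rose and 2 fell in SZA600. Of all tested genes 2.46% were called higher and 0.406% lower in SZA400, and 5.12% and 6.47% in SZA600. In SZA200 0.00989% were called higher and 0% lower. Nlrp3, the inflammasome sensor, fell in SZA400 (-1.48 ± 0.422, edgeR adjusted p = 0.0430) and SZA600 (-1.79 ± 0.410, adjusted p = 0.00854). Ccl2 fell in SZA600 (-2.03 ± 0.472, adjusted p = 0.00906). The SZA400 call of Nlrp3 was lost without the 4 libraries with RNA of other tissues (-1.23, adjusted p = 0.350) and when any of 12 of 18 libraries was left out. Summed macrophage markers had medians of 5305 CPM in SZA200 (range 1249.8 to 9246), 1592 in SZA400 (376 to 9875) and 2069.7 in SZA600 (703 to 5523), against 7367 in HFD. Markers of T and innate lymphoid cells (10 genes, none at 0) summed to a median of 65 CPM in SZA600 (range 29 to 148) and 219 in HFD (41 to 296). The part of these cells in the values was not tested.

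The other nuclear receptor genes were set beside the 3 described here. Of the 45 others reported here 34 were tested, and of these 0 were called in SZA200, 1 rose in SZA400 (Ppara), and 5 rose and 1 fell in SZA600. Of all tested genes 2.46% were called higher and 0.406% lower in SZA400, and 5.12% and 6.47% in SZA600. In SZA200 0.00989% were called higher and 0% lower. Among the 37 tested receptor genes with the 3 described here, Nr1d2 had the smallest p in every SZ-A group, and Nr1d1 the next smallest in SZA400 and SZA600. By size Nr1d1 was number 7 and Nr1d2 number 8 from the top in SZA600. Of the others 0 rose in SZA400 and 3 in SZA600 without the 4 libraries with RNA of other tissues. Of all 20054 genes in that fit 8 were called higher in SZA400 and 775 in SZA600. Rara fell in SZA600 (-0.47 ± 0.143), a call lost when any of 3 of 19 libraries was left out. Esr1 (1.14 in SZA600) rested on SZA600 library 6, one of the 4 with RNA of other tissues, with 204 CPM against a group median of 40.6 CPM, and without it the value was 0.59 and not called (adjusted p = 0.205). The calls of Ppara were lost when any of 9 of 18 libraries in SZA400 and any of 7 of 19 in SZA600 was left out, and without SZA400 library 6 its SZA400 value was 0.84 instead of 1.30. Hnf4a, a receptor of liver and epithelia, was fitted at 6.44 but had a median of 0 CPM in SZA600 and a highest library of 106 CPM, and without the 4 libraries with RNA of other tissues it was -2.97 (adjusted p = 0.119). In HFD against SD, where 13.3% of all genes were called lower and 18.4% higher, 13 of the 34 fell and 2 rose (Esrra and Rara). Over the alternatives 0 to 19 were called lower. The 13 include Hnf4a (-6.59), whose SD median was 0.11 CPM with a highest library of 86.8 CPM, and without SD library 4 it was -2.72 and not called (adjusted p = 0.182). Without that library Esr1 was -0.82 instead of -1.29 and not called (adjusted p = 0.0639). By p Rora was number 2, Nr1d1 number 3 and Nr1d2 number 6 of the 37.

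Genes of similar pattern were ranked by the smaller of the Pearson r of log2 CPM within the library sets, among 13512 genes. For Nr1d1 these were Map9 (smaller r 0.83), Per3 (0.83), Pitpnm3 (0.83), Dcaf8 (0.83) and Syt7 (0.82). For Nr1d2 they were Tef (0.78), Mtx3 (0.73), Kantr (0.71), N4bp2l2 (0.68) and Zranb2 (0.68). For Rora they were Lnpep (0.82), Dop1a (0.82), Arhgap21 (0.79), Atxn7 (0.78) and Abcb10 (0.78). Among the 3 genes, Nr1d1 and Nr1d2 had r of 0.72 in set 1 and 0.58 in set 2, Nr1d1 and Rora 0.77 and 0.22, and Nr1d2 and Rora 0.52 and 0.15. All r describe 22 libraries of set 1 and 21 of set 2, which share the group differences, the depth and the normalisation.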

How the data were processed

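RNA-seq of 43 libraries of mouse epididymal fat was analysed. Per the labels' protocols, libraries of poly(A) RNA kept strand through dUTP and were sequenced from both ends at 150 bp. Per the file headers, the authors deposited 1 raw count per gene and library, and the tests used them unchanged. The authors also deposited FPKM per gene, per the file headers, used to compare levels between genes and, as log2(FPKM + 1) and log2(FPKM + 0.1), in alternatives. The submitters' processing notes name mm10; the aligner and the counting program with its strand setting were not given in the sources used here. Total counts ranged from 32.7 to 44.3 in units of 1e6. Between 31.4% and 37.4% of each library's counts above 0 and under 20 were odd and the rest even; whether the mates of a pair were counted separately was not given in the sources used here.

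Groups and doses came from the labels. Counts were filtered with filterByExpr and tested in 1 fit of all 43 libraries by the robust quasi-likelihood F test of edgeR 4.0.16 with TMM factors in R 4.3.3, for 11 comparisons, each adjusted over its 20218 genes. CPM of single genes were normalised with the TMM factors, and log2 CPM used a prior count of 2. Summed marker CPM and the CPM of the rule for private genes were divided by total counts alone. They are thus on another scale than the CPM of single genes. The statistics were tested on simulated data. Alternatives were other scalings and filters, DESeq2 1.42.0, limma 3.58.1 (voom, and trend on FPKM), the replicate block, library sets, and omission of single libraries or of the 4 with RNA of other tissues. Library sets were divided at the widest gap in the log percentage of counts on small noncoding RNA genes, a split made from the data. A gene was private at 10 CPM or more and at over 20 times its median across libraries (floor 0.05 CPM), and 100 such genes marked a library. Figures used Python 3.11.15 and matplotlib 3.10.9. Promoter windows came from RefSeq, all 3 genes matched.

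The 3 genes and all lists (7 pathway lists, 100 symbols, and 9 marker lists) were chosen with earlier results of these data known. Some genes of these lists are not reported here. Named were the 3 genes, genes overlapping them, up to 3 called genes per list and comparison by smallest p, and for each of the 3 the 5 most similar genes. The further called genes of the clock lists, the corepressor list and the receptor list were named after their values were seen, as was Ube3a.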

Additional observations from a re-analysis of the deposited data

Results flagged for a closer look

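Rora in SZA400 library 3 was set apart from the rest of its group. It held 82.7 CPM, the highest of the 8 SZA400 libraries, and its distance to the next library was large for the group's range (Dixon's criterion). The library is 1 of the 4 with RNA of other tissues, and it also had the highest Nr1d1 value of all libraries (274 CPM). The criterion was applied to the highest and lowest library of 3 genes in 5 groups, and by chance it marks some groups. Without the 4 libraries, Rora in SZA400 against HFD was 0.20 on the log2 scale, against 0.33 with all 43.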

How the results depend on the processing

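In no alternative did a called difference of Nr1d1, Nr1d2 or Rora reverse. Within library set 2 alone, calls were lost for Nr1d1 in HFD against SD (-0.76), SZA400 (0.99), SZA600 (0.91) and the slope (0.35), and for Nr1d2 in HFD against SD (-0.52) and SZA200 (0.72). Without the libraries with RNA of other tissues in set 2, a setting chosen after seeing the data, calls were lost for Nr1d1 in SZA400 (1.05), SZA600 (0.98) and the slope (0.37), and for Nr1d2 in HFD against SD (-0.53), SZA200 (0.71), SZA400 (1.17), SZA600 (0.97) and the slope (0.34). In that setting Nr1d1 was called in HFD against SD (-0.92). Nr1d1 in SZA400 was not called from the libraries of the compared groups only (1.06), nor without the 4 libraries with RNA of other tissues (0.82). Nr1d2 in SZA200 was not called with DESeq2 size factors (0.64), on log2(FPKM + 1) (0.60) or log2(FPKM + 0.1) (0.64), or with no filter beyond 1 count (0.64), and ran from 0.60 to 0.68 when single libraries were left out. Rora in SZA600 against HFD was called by limma voom alone (0.32, adjusted p = 0.0181). Fewer libraries enter the within-set fits; the cause was not tested further. Replicates 1 to 5 of each high-fat group and 1 and 2 of SD lay in set 1, and all others in set 2. A block on replicate number therefore also takes up much of the difference between the sets. Replicate numbers were not taken as pairs, since the labels do not tie them to a shared animal or batch and not every same-numbered pair deviated together with r over 0.1. This held for 3 of 7 pairs in HFD against SD, and for 6 of 9, 6 of 8 and 7 of 9 in SZA200, SZA400 and SZA600 against HFD, where 3, 0 and 1 libraries correlated best with their own number, and 1 in HFD against SD. With the replicate number as a block, Nr1d1 was -1.14 in HFD against SD, 1.18 in SZA400 and 1.08 in SZA600, Nr1d2 was -0.52, 0.85 and 0.86, and no call of the 3 genes against HFD, in HFD against SD or of the slope changed, while against SD the block called Nr1d1 in SZA200 (-0.52), Nr1d2 in SZA400 (0.32) and SZA600 (0.34), and Rora in SZA400 (-0.43) and SZA600 (-0.51). Of 1120 list counts under alternatives, 903 were within 1.5 times the count reported and 217 were not: genes called lower of the RORE list in SZA600 ran from 0 to 3 (reported 3), and genes called higher of the E-box list from 0 to 7 (reported 5), with 0 or 1 called lower. Each of the 3 genes had at least 943 counts in every library, so counting error was small beside the spread between libraries shown above.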
